A study of Mus musculus with 9 samples.

Results

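The genes described here are the noncoding RNA genes of mouse plantaris muscle: rows of the deposited expression table annotated as lincRNA, antisense or processed_transcript with a mean of at least 1 RPKM over 9 libraries, leaving out Neat1 and Malat1 by name. RPKM scales the reads of a gene by its exon length and by the depth of the library, so levels of different genes can be set side by side. The rule kept 588 of the 13722 genes of the table, 242 of them antisense, 176 lincRNA and 170 processed_transcript. Another 121 rows of these classes fell below the threshold, with 4930539J05Rik at 1.001 RPKM just inside it and 4930474H06Rik at 0.992 RPKM just outside. The study set muscle of mice kept in hypoxic air against that of untreated mice. The mice were 3-month-old C57BL/6J males, and the labels name no genetic change in any group. They spent 0 h (control), 2 h or 6 h in 8% oxygen, with 3 libraries in each of the 3 groups. The control group at 0 h serves both times, so exposure and the hours that passed with it cannot be told apart. Nothing in the labels states that the 9 libraries came from 9 animals, and the p-values then reflect only how far libraries of a group spread, which may be technical.

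Long noncoding RNAs are transcribed, and often capped, spliced and polyadenylated, without encoding a known protein. Some act in the nucleus on nearby or distant genes, some act in the cytoplasm, some carry microRNAs or small nucleolar RNAs (snoRNAs) that are cut out of the transcript, and some genes first listed as noncoding were later found to encode short peptides. Many lie on the strand opposite a coding gene, so a read from such a place names its gene only if the strand of the RNA is known. The libraries were made with a TruSeq RNA kit, and whether the authors' counting used strand is not given in the sources used here. Overlap here means that the spans of the genes overlap, introns included. Where exons of a noncoding gene and a coding gene overlap, reads from there therefore cannot be told apart. For the genes that passed, the values of the coding gene are given beside them.

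The genes of the table held between 72706716 reads (6 h replicate 3) and 137097898 reads (2 h replicate 3), as recovered from the steps between low values. From 0.574% to 0.640% of these reads fell in the 588 noncoding genes, and the median noncoding gene stood between 3.15 and 4.01 RPKM. The tissue label was checked against 6 skeletal muscle fibre genes, all present, which summed to between 64450 and 77110 RPKM. Several libraries stood apart across the groups. In control replicates 2 and 3 and in 6 h replicate 2, 6 collagen and matrix genes summed to between 720.8 and 848.2 RPKM, against 96.8 to 395.8 in the other 6 libraries, and 6 macrophage genes to between 114 and 186 RPKM, against 26.9 to 36.6. In 6 h replicate 1, 6 nerve and Schwann cell genes summed to 638.8 RPKM, against 52.96 to 84.7 elsewhere. In 6 h replicate 3, 5 slow fibre genes summed to 3725 RPKM, against 351 to 882 elsewhere. In bulk muscle, fewer cells of a type and less RNA per cell cannot be told apart.

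Most of the noncoding genes shared their place in the genome with a coding gene. By the coordinates of the deposited table (mm9), 455 of the 588 overlapped a coding gene on the opposite strand only, 16 on the same strand only and 38 on both strands, and 79 overlapped none. Of the 242 antisense genes 234 overlapped a coding gene, but so did 128 of the 176 lincRNA genes, a class named for lying between genes, and 147 of the 170 processed_transcript genes. A later annotation, GENCODE M21, lists 416 of the 588 identifiers. It calls 275 of them antisense, 87 processed_transcript, 24 lincRNA and 16 protein_coding. In that annotation 101 noncoding genes have more than 50% of their exon bases within coding exons, and 271 have a smaller share above 0. RefSeq held an entry by symbol or synonym for 306 members, 30 of them protein_coding, among them Mtln and Nbdy described below. Read depth differed widely: the count of a gene in its own highest library had a median of 342.5 reads over the 588 genes, and it was under 100 reads for 121 genes and under 30 for 30 genes.

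Levels ran from 1.001 to 867 RPKM. The median member stood at 3.64 RPKM over the 9 libraries, 151 reached 10 RPKM, 14 reached 100 RPKM and 189 lay under 2 RPKM. The 79 genes that overlap no coding gene had a lower median, 2.33 RPKM, than the 509 that overlap one, 4.07 RPKM. The highest was Gm17224, a gene opposite Casq1, which encodes calsequestrin, the main calcium store of fast fibres. Gm17224 ranged from 639 to 1102 RPKM, with 1003 ± 86.3 in controls, 758 ± 145 at 2 h and 839 ± 109 at 6 h (mean ± SD, n = 3), while Casq1 averaged 1268 RPKM over the 9 libraries. Their levels ran together over the libraries (Pearson r of log2(RPKM + 0.5) 0.993), and Casq1 was the gene of the whole table most like Gm17224.

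The next, Gm12300, is named Myhas in RefSeq and runs opposite the cluster of fast myosin heavy chain genes. It stood at 747 ± 12.2 RPKM in controls, 743 ± 154 at 2 h and 607 ± 243 at 6 h. Its lowest library was 6 h replicate 3, at 365 RPKM, the library with the high slow fibre genes, whose part in the value was not tested. There Myh1, which encodes the fast type IIx myosin heavy chain and is a gene that Gm12300 overlaps, was also lowest at 695 RPKM against 1158 to 1806 elsewhere, and Gm12300 followed Myh1 more closely (r = 0.914) than Myh4 (r = 0.342). Another 6 of the 10 highest lay opposite a coding gene: Gm13601 at 344 RPKM (Xirp2, an actin-binding protein of the sarcomere), Gm12043 at 238 (Ugp2, which makes UDP-glucose), Gm16537 at 229 (Gpd1, cytosolic glycerol-3-phosphate dehydrogenase), Gm16272 at 196 (Ndufb2, a subunit of respiratory complex I), Gm16755 at 163 (Mrpl12, a mitochondrial ribosomal protein) and Gm15441 at 141 (Txnip, which binds thioredoxin). Gm17021, at 131 RPKM, lay on the strand of Fyco1, an adaptor of vesicle transport. H19, at 222 RPKM, was the only one of the 10 that overlaps no coding gene.

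Noncoding genes were in general less abundant than the coding gene they overlap, but many were not. Only the noncoding genes had to reach a mean of 1 RPKM, which can raise the count and the ratios that follow. Of 509 noncoding genes with an overlapping coding gene (the one of highest mean where there are several), 141 had the higher mean RPKM of the pair, and the median ratio was 0.641. By the share of exon bases within later coding exons, the median ratio was 0.923 for the 101 genes with over 50% there, 0.555 for the 264 with a smaller share above 0 and a partner, and 1.22 for the 5 with a partner and no such base, so it did not follow the share in order. Across the 507 pairs in which both were tested, the log2 levels correlated with r = 0.679, a value across genes that share libraries and, where exons overlap, possibly reads.

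**Figure D1:**
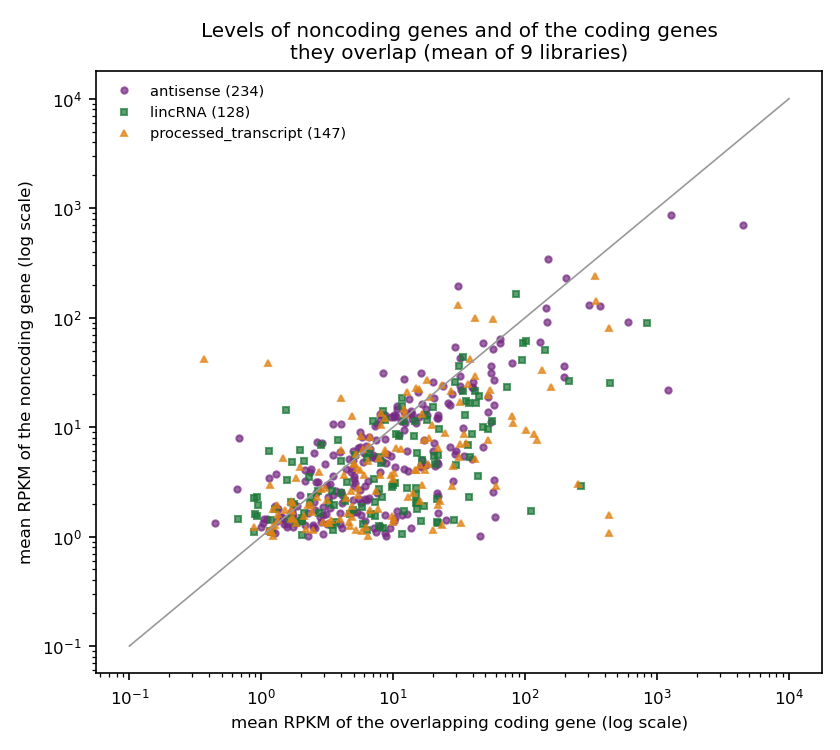
Mean RPKM over 9 libraries of each of 509 noncoding genes (vertical, log scale) against the mean RPKM of the coding gene it overlaps (horizontal, log scale), by class. The line marks equal levels, and 141 points lie above it.

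The changes of the noncoding genes ran with those of the overlapping coding genes. Over the 9 libraries the median pair had r = 0.795 (middle range from 0.547 to 0.923), and in 128 of 507 pairs the coding gene was among the 10 genes of the table most like the noncoding gene. By the share of exon bases within later coding exons, the median r was 0.829 for 101 pairs over 50% and 0.758 for 263 with a smaller share above 0. It was 0.506 for the 4 with none and 0.838 for 139 not listed in GENCODE M21. The log2 fold changes of the pairs correlated with r = 0.763 at 2 h against control, 0.768 at 6 h against control and 0.712 at 6 h against 2 h, and they had the same sign in 374, 405 and 401 pairs. For noncoding genes that overlap no coding gene but have one within 1000 bases, the values were lower: over 30 such pairs the median r over libraries was 0.161 (middle range from -0.253 to 0.424), and the fold changes correlated with r = -0.302, -0.183 and 0.138 in the 3 comparisons. These correlations are descriptions over pairs from the same 9 libraries, and the difference between the sets of pairs was not tested.

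**Figure D2:**
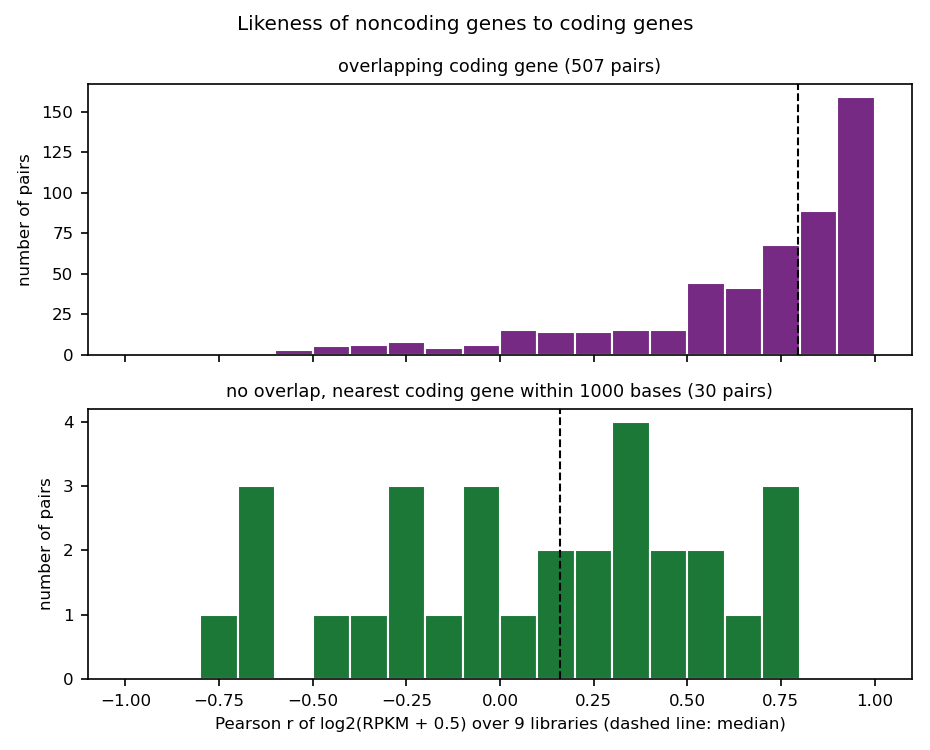
Number of pairs (vertical) by Pearson r of log2(RPKM + 0.5) over 9 libraries (horizontal), for 507 noncoding genes with the coding gene they overlap and for 30 with the nearest coding gene within 1000 bases. The median, drawn as a dashed line, is 0.795 for overlapping pairs and 0.161 for neighbours.

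Changes with exposure were tested with limma on log2(RPKM + 0.5) for all 13309 genes with a mean of at least 0.5 RPKM, with Benjamini-Hochberg adjustment over all of them and a threshold of 0.05. All 588 noncoding genes were tested. Few passed. At 2 h against control 2 noncoding genes passed, which is 0.34% of them beside 0.774% of all genes tested. Of these 1 was higher (0.17% beside 0.473%) and 1 lower (0.17% beside 0.301%). At 6 h 10 passed, 1.7% beside 1.6% of all genes, 6 of them higher (1.02% beside 0.999%) and 4 lower (0.68% beside 0.601%). At 6 h against 2 h 1 passed, 0.17% beside 0.143%, and it was lower (0.17% beside 0.0751%), while 0.0676% of all genes were higher. These shares lie near or below those of all genes, or rest on 1 gene. At an unadjusted p under 0.05 the noncoding genes stood at 21.9%, 17.3% and 15.1% in the 3 comparisons, beside 20.1%, 19.1% and 16.4% of all genes. The 3 libraries of the groups compared did not overlap for 25.9%, 22.1% and 19.6% of the noncoding genes in these comparisons, beside 27.5%, 25.9% and 22.6% of all genes tested. The median log2 fold change of the noncoding genes was -0.01 at 2 h and 0.07 at 6 h, against 0.00 and 0.05 for all genes. In the authors' deposited table, 0 of the 588 had an adjusted p under 0.05 at either time, beside 0 genes of the whole table at 2 h and 6 at 6 h.

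At 2 h the gene that rose was Gm17499, a lincRNA at chr10:90612260-90613339 (mm9) opposite Tmpo, which encodes lamina-associated polypeptide 2, a protein of the nuclear envelope. It stood at 11.6, 9.48 and 12.2 RPKM in controls, 18.0, 19.6 and 17.9 at 2 h, and 13.1, 12.8 and 11.6 at 6 h. The 2 h libraries lay above all 6 others. The log2 fold change at 2 h was 0.72 ± 0.11 (SE; limma adjusted p = 0.042), and that of Tmpo was 0.40 (adjusted p = 0.135). The gene that fell at 2 h was 5330430P22Rik, named Taco1os in RefSeq, at chr11:105926391-105927619 opposite Taco1, which encodes a translational activator of mitochondrial cytochrome c oxidase. It stood at 7.81, 6.99 and 7.07 RPKM in controls, 4.89, 4.44 and 3.55 at 2 h, and 6.55, 6.02 and 7.06 at 6 h. Again the 2 h libraries stood apart from all others. The log2 fold change was -0.71 ± 0.12 (adjusted p = 0.043), beside -0.53 for Taco1 (adjusted p = 0.055), the gene of the table most like it over the 9 libraries.

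The other 4 of the 6 noncoding genes with the smallest p and separate groups at 2 h did not pass. Gm14290 overlaps no coding gene. It stood at 2.14, 2.03 and 1.99 RPKM in controls, 1.33, 1.17 and 1.03 at 2 h, and 2.10, 2.39 and 2.28 at 6 h, with an adjusted p at 2 h of 0.05002, above the threshold. Gm5918, Ccpg1os in RefSeq and protein_coding in GENCODE M21, lies 53 bases from Ccpg1 and stood at 3.39, 4.30 and 4.69 RPKM in controls and 8.58, 7.47 and 6.45 at 2 h (adjusted p = 0.0527). Gm17178 lies opposite Aspscr1, also called TUG, which holds back the glucose transporter GLUT4 inside the cell, and has 99.4% of its exon bases in coding exons. It stood at 8.97, 9.78 and 8.62 RPKM in controls and 17.9, 13.02 and 14.4 at 2 h (adjusted p = 0.0527), and Aspscr1 at 16.57, 16.99 and 17.42 and then 32.9, 23.3 and 23.4. Gm12426 lies opposite the collagen gene Col15a1, held at most 33 reads in a library, and stood at 4.998, 6.68 and 7.81 RPKM in controls and 2.10, 1.06 and 0.789 at 2 h (adjusted p = 0.0539). Its highest libraries were control replicates 3 and 2 and 6 h replicate 2, those of high matrix genes. Its log2 fold change at 2 h was -1.99 with all libraries, -1.66 without those 3 (limma adjusted p = 0.346) and -1.43 with a term for them (adjusted p = 0.126).

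The 2 h count rested on the make-up of the groups. Leaving out control replicate 1 gave 7 genes (160 of all genes tested), and leaving out 6 h replicate 2 gave 21 (396 of all). Leaving out 6 h replicate 1 gave 1 gene (30 of all). Leaving out control replicate 2, control replicate 3, 6 h replicate 3 or any 1 of the 2 h libraries gave 0 (0 to 18 of all). It was 0 without the 3 libraries of high matrix genes, where the log2 fold changes were 0.64 for Gm17499 and -0.80 for Taco1os. With TMM scaling 1 gene was higher and 4 lower (53 and 63 of all genes). edgeR on the recovered reads called Gm17499 (adjusted p = 0.046) but not Taco1os (adjusted p = 0.057), and DESeq2 called both (adjusted p = 3.9e-05 and 0.0011).

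At 6 h the noncoding genes that rose lay mostly over coding genes that rose as well. In 4 of the 10 that passed, the overlapping coding gene passed too, and in 9 of 10 it had the same sign. Seen from the other side, 11 of the 507 overlapping coding genes passed at 6 h, and the noncoding gene had the same sign in all 11. Gm16559, at chr3:137944372-137969986 opposite Adh1, the class I alcohol dehydrogenase that also oxidizes retinol, stood at 3.67, 4.26 and 3.48 RPKM in controls, 3.85, 5.07 and 5.61 at 2 h, and 7.61, 8.09 and 7.74 at 6 h. The 6 h libraries lay above all others. Its log2 fold change was 0.95 ± 0.13 (adjusted p = 0.021) and that of Adh1 1.00 (adjusted p = 0.019).

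RP24-337A16.1, at chr3:52072357-52073357 opposite Foxo1, has 98.1% of its exon bases within coding exons of the later annotation, where it is called Gm20402. Foxo1 is a transcription factor that drives muscle protein breakdown and fasting genes. The noncoding row stood at 2.51, 1.71 and 2.17 RPKM in controls, 3.07, 5.005 and 2.57 at 2 h, and 5.65, 5.33 and 6.43 at 6 h, a log2 fold change at 6 h of 1.27 ± 0.21 (adjusted p = 0.032). Foxo1 had a log2 fold change of 1.43 (adjusted p = 0.0065). At 2 h Foxo1 had already risen, by 1.17 (adjusted p = 0.020), while the noncoding row had a log2 fold change of 0.59 that did not pass (adjusted p = 0.171). Gm13068, at chr4:149122627-149123716, lies opposite Slc25a33, a mitochondrial carrier of pyrimidine nucleotides. It stood at 9.77, 9.74 and 7.92 RPKM in controls, 9.38, 11.01 and 13.3 at 2 h, and 15.1, 16.6 and 17.4 at 6 h. Its log2 fold change at 6 h was 0.81 ± 0.14 (adjusted p = 0.032) beside 0.90 for Slc25a33 (adjusted p = 0.024), the gene most like it over the libraries.

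The host gene of a microRNA also rose at 6 h. Row 2210403K04Rik, Mir22hg in RefSeq, at chr11:75275041-75280178 (mm9), carries miR-22, a microRNA abundant in striated muscle, and overlaps Tlcd2, a membrane protein gene, on the same strand. It stood at 6.99, 8.68 and 7.72 RPKM in controls, 15.997, 7.14 and 8.24 at 2 h, and 20.2, 17.04 and 28.0 at 6 h. All 6 h libraries lay above all others, and 2 h replicate 1 lay apart from the other 2 h libraries. The log2 fold change at 6 h was 1.40 ± 0.28 (adjusted p = 0.049), and at 2 h it was 0.32 (adjusted p = 0.552). Tlcd2 rose by 1.28 (adjusted p = 0.045) and was nearly parallel to it (r = 0.999). The row of the Mir22 gene itself, whose hairpin lies within the host, had a log2 fold change of 1.48 at 6 h (adjusted p = 0.068). These rows lie on the same strand and may hold the same reads, and none measures the mature microRNA.

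The mature sequences that such hosts carry are shown because they are the products for which these hosts are known. They are from RefSeq (GRCm38.p6), 5′ to 3′, with the seed, bases 2 to 8 that pair with target RNAs, in capitals. Mir22 lies in Mir22hg, Mir675 in H19, and Mir132 and Mir212 in 1700016P03Rik.
mmu-miR-22-5p: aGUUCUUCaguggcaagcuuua
mmu-miR-22-3p: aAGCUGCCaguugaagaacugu
mmu-miR-675-5p: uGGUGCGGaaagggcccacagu
mmu-miR-675-3p: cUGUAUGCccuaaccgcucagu
mmu-miR-132-3p: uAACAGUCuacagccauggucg
mmu-miR-212-3p: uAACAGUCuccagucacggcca

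By GRCm38 coordinates, 10 members hold 14 hairpins with 26 mature sequences on their own strand, and among their 25 seeds only AACAGUC, of miR-132-3p and miR-212-3p, occurs more than once. Of these 10 hosts 1 rose at 6 h (Mir22hg) and 0 fell, beside 0.999% and 0.601% of all genes tested. At 2 h, and at 6 h against 2 h, 0 of 10 passed with limma. In these comparisons 2 and 3 had an unadjusted p under 0.05, beside 20.1% and 16.4% of all genes. edgeR on the recovered reads called 0 and 0, and DESeq2 called 0 and 2, beside 1382 and 893 of 13271 genes. The host of miR-132 and miR-212, a pair induced in neurons by CREB, is named after its values were seen. It stood at 1.58, 1.56 and 1.75 RPKM in controls, 1.51, 1.96 and 1.80 at 2 h, and 0.846, 0.836 and 1.25 at 6 h. Its 6 h libraries lay below all others, but it did not pass at 6 h against control (log2 fold change -0.54, adjusted p = 0.106), and Ovca2, which it lies opposite, had a log2 fold change of 0.02 (adjusted p = 0.941).

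The region at the start of Mir22hg is shown because this host rose: 250 bases before to 50 after the start, RefSeq, GRCm38.p6, chr11:75461289-75461588, plus strand. Capitals mark ACGTG on either strand, a form of the core letters that hypoxia-inducible factors bind. No other form of the core was searched for or marked.
Mir22hg: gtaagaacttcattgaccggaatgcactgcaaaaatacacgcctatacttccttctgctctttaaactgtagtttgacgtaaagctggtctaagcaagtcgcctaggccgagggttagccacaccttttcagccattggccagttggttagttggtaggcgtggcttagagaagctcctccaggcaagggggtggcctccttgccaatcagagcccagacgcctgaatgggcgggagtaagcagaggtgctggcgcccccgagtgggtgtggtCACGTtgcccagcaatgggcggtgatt

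ACGTG, which is also part of the E-box CACGTG, occurs once in this window and in 19.6% of all 32851 promoter windows of the RefSeq table, so its presence is a description and not a binding site. Of 246 members with such a window, 27.2% hold it.

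In 2 of the 6 noncoding genes that rose at 6 h, the coding partner had a far smaller or an opposite value. edgeR on the recovered reads called neither at 6 h (adjusted p = 0.066 for 9330136K24Rik and 0.075 for Gm9783), while DESeq2 called both (adjusted p = 0.015 and 0.019). 9330136K24Rik, a lincRNA at chr17:21665158-21672842 opposite the zinc finger gene Zfp52, had the largest log2 fold change of the 10, 1.5 ± 0.28 (adjusted p = 0.039). It stood at 3.07, 4.83 and 3.55 RPKM in controls, 4.70, 2.70 and 1.86 at 2 h, and 9.37, 14 and 11.8 at 6 h, from at most 81 reads in a library. The 6 h libraries lay above the other 6, while Zfp52 stood at 1.64, 1.98 and 2.44 in controls and 2.42, 2.67 and 2.08 at 6 h, a log2 fold change of 0.20 (adjusted p = 0.593). At 2 h Zfp52 stood at 1.93, 1.31 and 1.07, from which its log2 fold change to 6 h was 0.60 (adjusted p = 0.178), and over the 9 libraries the pair had r = 0.795, like the median pair. The start region of 9330136K24Rik, shown in the same way (GRCm38.p6, chr17:21535829-21536128, minus strand), holds no ACGTG on either strand.
9330136K24Rik: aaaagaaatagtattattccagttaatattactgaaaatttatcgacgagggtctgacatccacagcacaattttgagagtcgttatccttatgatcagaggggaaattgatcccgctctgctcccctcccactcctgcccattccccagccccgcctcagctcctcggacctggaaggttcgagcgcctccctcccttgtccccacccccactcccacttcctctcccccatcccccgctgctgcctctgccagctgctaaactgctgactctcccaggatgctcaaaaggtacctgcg

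Gm9783, called Frmd8os in GENCODE M21, at chr19:5848508-5851372 opposite Frmd8, a partner of the iRhom proteins that carry ADAM17 to the cell surface, moved against its partner. It stood at 0.802, 0.790 and 1.08 RPKM in controls, 1.25, 1.67 and 1.97 at 2 h, and 2.07, 1.95 and 2.00 at 6 h, so that all control libraries lay below all 6 hypoxia libraries. The log2 fold change at 6 h was 0.86 ± 0.16 (adjusted p = 0.035), from at most 99 reads in a library. Frmd8 stood at 1.34, 1.88 and 1.65 in controls and 0.956, 1.39 and 1.07 at 6 h, a log2 fold change of -0.37 that did not pass (adjusted p = 0.219). Over the 9 libraries the pair had r = -0.693.

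The 4 noncoding genes that fell at 6 h each lay opposite a coding gene with the same sign that did not pass. BC042782, Junos in RefSeq, at chr4:94718225-94834009, lies opposite Jun, which encodes the AP-1 subunit c-Jun. It stood at 20.6, 23.9 and 23.3 RPKM in controls, 23.1, 18.7 and 18.5 at 2 h, and 13.99, 13.4 and 12.1 at 6 h. The 6 h libraries lay below all others. The log2 fold change at 6 h was -0.76 ± 0.11 (adjusted p = 0.024) beside -0.48 for Jun (adjusted p = 0.092). Gm16983, at chr8:129090870-129114888 opposite the corepressor gene Irf2bp2, stood at 5.48, 6.74 and 6.67 RPKM in controls, 6.93, 7.60 and 7.31 at 2 h, and 3.95, 3.84 and 4.12 at 6 h. All 2 h libraries lay above, and all 6 h libraries below, those of the controls. It fell by 0.60 ± 0.10 at 6 h (adjusted p = 0.030), beside -0.53 for Irf2bp2 (adjusted p = 0.053).

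Gm14818, at chrX:92666787-92753326, lies opposite Asb12, a substrate adaptor of ubiquitin ligases expressed in muscle. It stood at 25.7, 30.04 and 29.4 RPKM in controls, 15.4, 21.1 and 19.5 at 2 h, and 18.2, 16.6 and 13.6 at 6 h. The controls lay above all 6 hypoxia libraries, with a log2 fold change at 6 h of -0.80 ± 0.15 (adjusted p = 0.037), beside -0.75 for Asb12 (adjusted p = 0.054). At 2 h its log2 fold change was -0.60 (adjusted p = 0.080). Gm17603, at chr12:52989002-52990446 opposite Heatr5a, stood at 4.57, 5.50 and 3.90 RPKM in controls, 5.09, 3.46 and 2.8 at 2 h, and 2.20, 2.05 and 1.80 at 6 h. Its log2 fold change at 6 h was -1.03 ± 0.20 (adjusted p = 0.042), beside -0.65 for Heatr5a (adjusted p = 0.075).

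**Figure D3:**
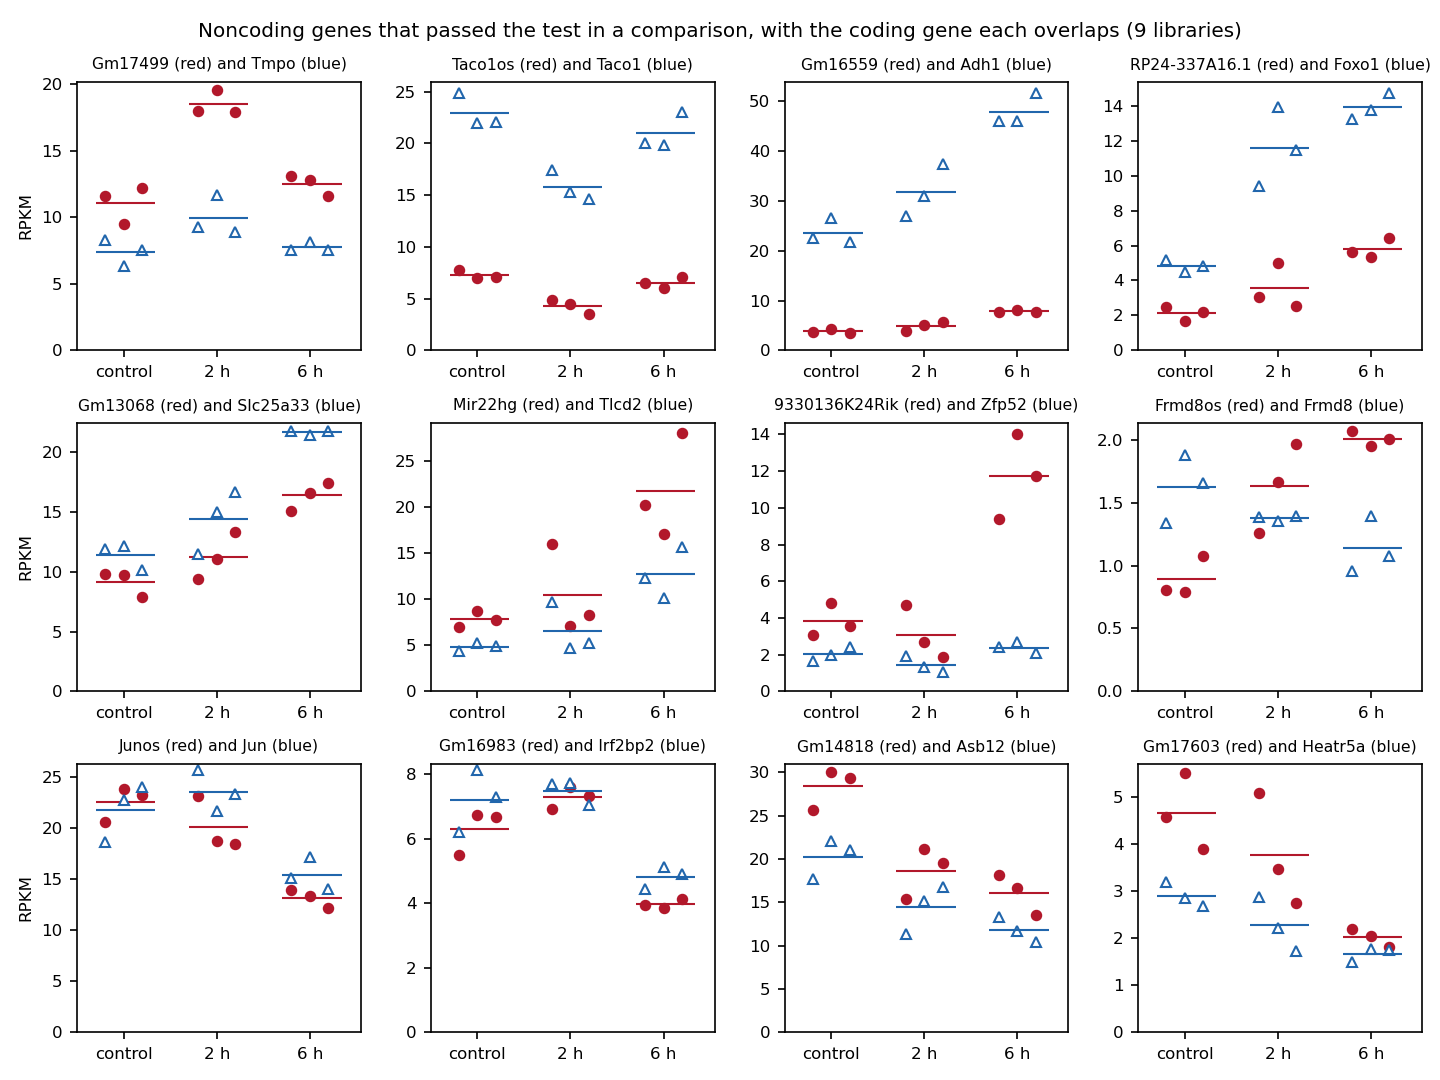
RPKM in each of 9 libraries (points) with group means (lines) for the 12 noncoding genes that passed in a comparison (red circles) and the coding gene each overlaps (blue triangles). The 6 h libraries of Gm16559 and Adh1 both lie above their controls, while 9330136K24Rik reaches 9.37 to 14 RPKM at 6 h with Zfp52 at 2.08 to 2.67, and Frmd8os and Frmd8 differ in direction.

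The 6 h count also rested on individual libraries. Leaving out control replicate 2, control replicate 3, 6 h replicate 1 or 6 h replicate 3 gave 0 genes (10 to 25 of all genes tested). Leaving out 2 h replicate 2 gave 4 (110 of all), and leaving out 6 h replicate 2 gave 17 (417 of all). Without the 3 libraries of high matrix genes only control replicate 1 is left in its group. There the log2 fold changes of the 10 lay between -1.03 (Gm17603) and 1.69 (Mir22hg). Their signs could not change, because the 6 h and control libraries of each did not overlap. With a term for those libraries 12 genes passed (374 of all). With median-ratio or TMM scaling 6 genes were higher and 7 lower (116 and 161, or 100 and 166, of all genes). edgeR on the recovered reads called neither Gm17603 (adjusted p = 0.054) nor Gm13068 (adjusted p = 0.059), while DESeq2 called both (adjusted p = 0.0072 and 0.0021).

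**Figure D4:**
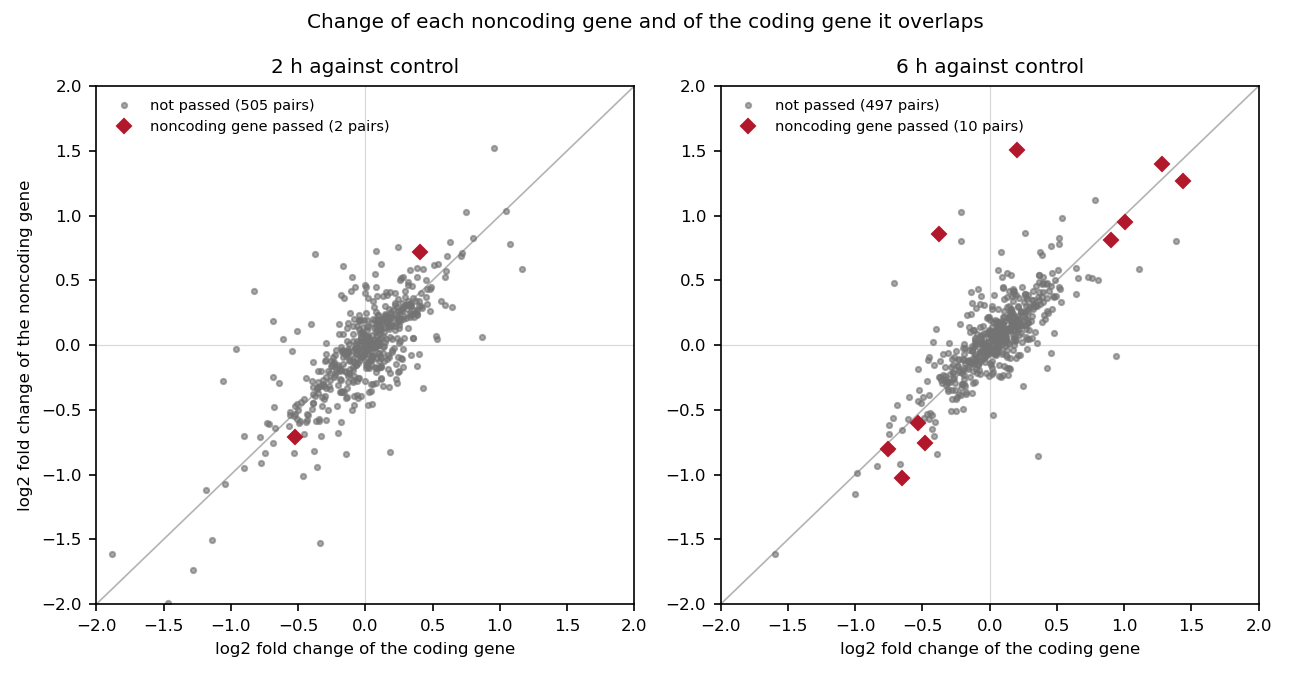
Log2 fold change of each of 507 noncoding genes (vertical) against that of the coding gene it overlaps (horizontal), at 2 h and at 6 h against control. Diamonds are noncoding genes that passed, and the line marks equal change. At 6 h 2 diamonds lie far above the line, 9330136K24Rik at 1.5 with its partner at 0.20 and Frmd8os at 0.86 with its partner at -0.37.

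Between 2 h and 6 h a single noncoding gene passed. Gm16983, with the libraries given above, was lower at 6 h than at 2 h by a log2 fold change of -0.80 ± 0.10 (adjusted p = 0.042), beside -0.59 for Irf2bp2 (adjusted p = 0.079). The noncoding genes of next smallest p with separate groups did not pass. They were 9330136K24Rik (1.83 ± 0.28, adjusted p = 0.054), Gm14290 (0.72 ± 0.11, adjusted p = 0.054), 2900002K06Rik (0.81 ± 0.15, adjusted p = 0.074), BC042782 (-0.59 ± 0.11, adjusted p = 0.084) and Gpr137b-ps (0.73 ± 0.15, adjusted p = 0.089). Among these 2900002K06Rik, Rbm3os in RefSeq, lies opposite Rbm3, a cold-inducible RNA-binding protein. It stood at 14.2, 10.5 and 10.7 RPKM at 2 h and 21.1, 24.2 and 17.9 at 6 h, and Rbm3 at 54.5, 36.6 and 42.7 and then 68.0, 97.4 and 62.2. No noncoding gene passed without control replicate 2, control replicate 3, 2 h replicate 2, 2 h replicate 3 or any 1 of the 6 h libraries, and without 2 h replicate 1 the gene that passed was another.

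Of the 79 noncoding genes that overlap no coding gene, 0 passed with limma in any of the 3 comparisons. At an unadjusted p under 0.05 there were 24, 13 and 13 of the 79. Among all 588 there were 129, 102 and 89 (21.9%, 17.3% and 15.1%), and among all genes tested 20.1%, 19.1% and 16.4%. At 2 h the share of the 79 was above both of these, a difference that was not tested. edgeR on the recovered reads called 2, 1 and 1 of the 79, beside 157, 316 and 80 of all 13309 genes, and DESeq2 10, 3 and 3, beside 1382, 1141 and 893 of 13271. The genes that edgeR called were Gm14290 at 2 h and at 6 h against 2 h, and A530013C23Rik at 2 h and 6 h. A530013C23Rik lies 759 bases from Cebpb, a stress-responsive transcription factor, and is named here after its values were seen. It stood at 0.869, 0.699 and 0.612 RPKM in controls, 2.31, 1.83 and 1.84 at 2 h, and 2.09, 1.26 and 2.47 at 6 h. All controls lay below all 6 hypoxia libraries, with limma adjusted p of 0.055 at 2 h and 0.053 at 6 h and edgeR adjusted p of 0.047 and 0.039. Cebpb stood between 23.96 and 41.5 RPKM in controls and between 20.7 and 30.1 in the hypoxia libraries.

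H19, an imprinted lincRNA expressed from the maternal chromosome and high in developing and regenerating muscle, was the most abundant gene of the 79. It stood at 106, 307 and 275 RPKM in controls, 185, 151 and 153 at 2 h, and 332, 196 and 293 at 6 h. The groups overlapped for both times against control, with log2 fold changes of -0.36 ± 0.37 (adjusted p = 0.620) and 0.36 ± 0.37 (adjusted p = 0.642), and control replicate 1 was the lowest of all libraries. The row of Mir675, the microRNA inside H19 shown above, followed it (r = 0.993). These rows lie on the same strand and may hold the same reads, and neither measures the mature microRNA. The other imprinted noncoding genes were low. Airn, the antisense RNA that silences Igf2r, ranged from 1.44 to 3.02 RPKM, with log2 fold changes of 0.11 at 2 h and -0.09 at 6 h beside -0.51 (adjusted p = 0.133) and -0.45 (adjusted p = 0.180) for Igf2r, and Rian, which lies with Meg3 in the Dlk1 domain, ranged from 0.413 to 3.16 RPKM. Rian was highest in control replicate 3, 6 h replicate 2 and control replicate 2, the libraries of high matrix genes, whose part in it was not tested. Of these 3 imprinted genes 0 passed in either time against control, and edgeR called 0 and 0. At an unadjusted p under 0.05 there were 1 and 0, beside 20.1% and 19.1% of all genes.

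snoRNA host genes carry, in their introns, the guide RNAs that modify ribosomal RNA, and 10 of a list of 24 were members. They ranged from Snhg15 (row Gm11974) at 1.32 RPKM and Snhg7 at 1.59 to Snhg3 at 18.3 and 2410006H16Rik at 29.7, with Snhg20 (row 2810008D09Rik) at 2.92, Snhg4 at 3.10, Snhg12 at 4.94, Snhg1 at 5.94, Snhg5 at 7.66 and 2410004N09Rik (Epb41l4aos) at 8.41. With limma 0 of 10 passed in any comparison, and edgeR called 0 in each. At an unadjusted p under 0.05 there were 2, 0 and 1, beside 20.1%, 19.1% and 16.4% of all genes. DESeq2 called 1, 0 and 0, beside 1382, 1141 and 893 of 13271 genes. Their median log2 fold change was 0.09 at 2 h and 0.11 at 6 h, against 0.00 and 0.05 for all genes. The lowest p belonged to Epb41l4aos, at 5.68, 6.63 and 4.89 RPKM in controls, 13.7, 11.9 and 11.1 at 2 h, and 7.90, 4.39 and 9.43 at 6 h. Its 2 h libraries lay above all others (log2 fold change 1.04 ± 0.24, adjusted p = 0.070). 2410006H16Rik stood at 15.2, 31.7 and 25.2 in controls, 45.7, 34.3 and 34.5 at 2 h, and 28.4, 30.1 and 22.4 at 6 h (0.71 ± 0.25 at 2 h, adjusted p = 0.165), again with the 2 h libraries on top.

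Of a list of 9 genes once annotated as noncoding but since found to encode short peptides, 2 were members. Mtln (row 1500011K16Rik) encodes mitoregulin, a peptide of the inner mitochondrial membrane, and Nbdy (row 2210013O21Rik) a peptide of the cytoplasmic bodies where mRNA is decapped. Mtln stood at 50.4, 49.2 and 47.8 RPKM in controls, 75.3, 55.7 and 58.7 at 2 h, and 56.2, 51.2 and 51.0 at 6 h. Nbdy stood at 10.3, 11.4 and 11.1 RPKM in controls, 16.7, 12.5 and 13.8 at 2 h, and 12.5, 13.7 and 11.6 at 6 h. For each of them the controls lay below all hypoxia libraries, and neither passed with limma (adjusted p = 0.155 and 0.139 at 2 h, and 0.679 and 0.397 at 6 h). At 2 h both had an unadjusted p under 0.05, beside 20.1% of all genes. There edgeR called 0 and DESeq2 called both, beside 1382 of 13271 genes. At 6 h neither had an unadjusted p under 0.05, and edgeR and DESeq2 called 0. In both the highest library was 2 h replicate 1, which held the highest value of 111 of the 588 noncoding genes and of 21 of the 79.

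Among noncoding RNAs of known function, Tug1, which is found in nucleus and cytoplasm, stood at 4.46, 4.00 and 4.21 RPKM in controls, 3.43, 3.00 and 3.75 at 2 h, and 3.31, 3.53 and 3.29 at 6 h. Its controls lay above all hypoxia libraries, with log2 fold changes of -0.28 ± 0.10 at both times that did not pass (adjusted p = 0.162 and 0.171). Firre (row 6720401G13Rik), an X-linked RNA that stays near its site of transcription, ranged from 0.785 to 1.11 RPKM in controls and from 1.12 to 1.87 in the hypoxia libraries (0.33 at 2 h and 0.50 at 6 h, adjusted p = 0.300 and 0.161). Oip5os1 (row 1700020I14Rik), also called cyrano and known for the breakdown of miR-7, ranged from 24.8 to 69.8 RPKM with overlapping groups. Jpx (row Enox), an activator of Xist, ranged from 0.898 to 2.49 RPKM, and Dleu2, the host of miR-15a and miR-16-1, from 2.00 to 4.20 RPKM. Of the 4 members of this list (Tug1, Firre, Oip5os1 and Airn) 0 passed at either time, and edgeR called 0 and 0. At an unadjusted p under 0.05 there were 1 and 2, beside 20.1% and 19.1% of all genes. DESeq2 called 0 and 2, beside 1382 and 1141 of 13271 genes. A list studied in hypoxia or stress had 5 members (H19, Mir22hg, Tug1, Dleu2 and Snhg1). Of these 1 rose at 6 h, Mir22hg, beside 0.999% of all genes tested. At that time 2 had an unadjusted p under 0.05, beside 19.1% of all genes. edgeR called 1 and DESeq2 2, beside 316 of 13309 and 1141 of 13271 genes. At 2 h 0 passed, beside 0.774% of all genes, and 1 had an unadjusted p under 0.05, beside 20.1%. There edgeR and DESeq2 called 0, beside 157 of 13309 and 1382 of 13271 genes. Row 2310065F04Rik, known as linc-Myh for its place beside the fast myosin genes, is named here after its values were seen. It stood at 33.4, 20.4 and 22.5 RPKM in controls, 30.9, 33.2 and 35.1 at 2 h, and 37.7, 24.7 and 33.6 at 6 h, and its 3 lowest libraries were those of high matrix genes, whose part was not tested.

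**Figure D5:**
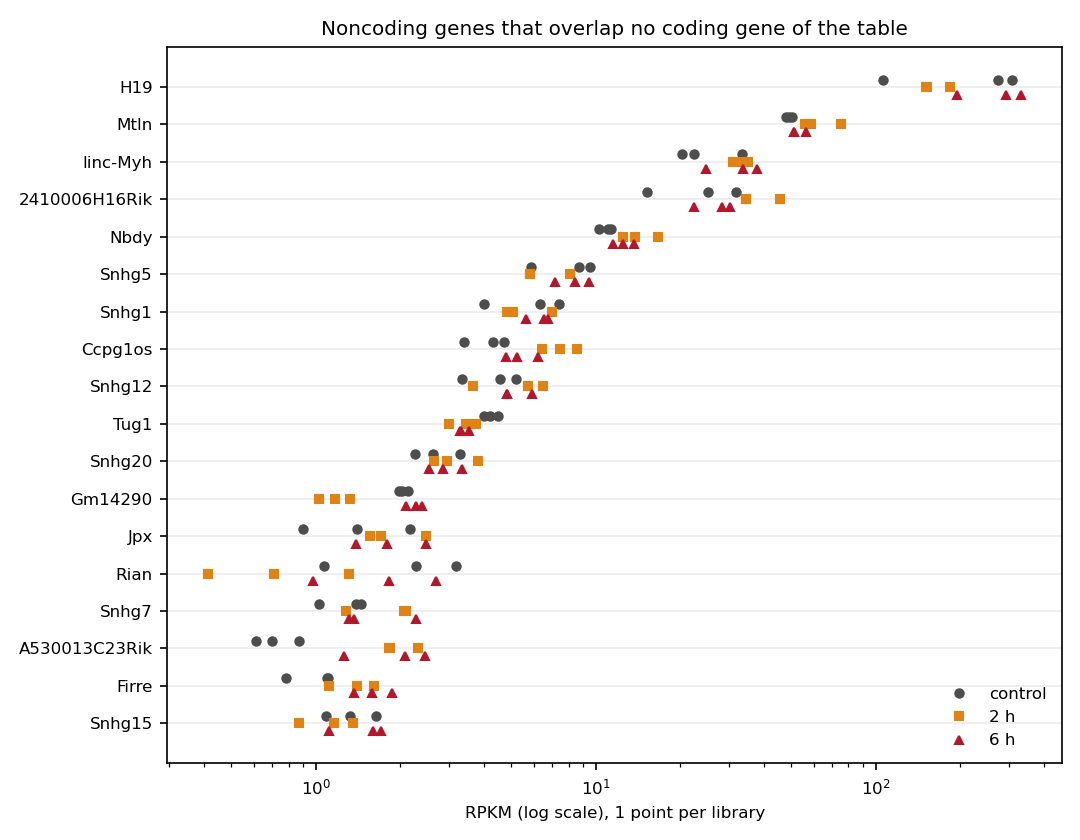
RPKM (horizontal, log scale) in each of 9 libraries for 18 noncoding genes that overlap no coding gene, by group. The controls of A530013C23Rik, 0.612 to 0.869 RPKM, lie left of its 6 hypoxia libraries, the 2 h libraries of Gm14290 lie left of the other 6, and those of H19 lie within the range of the controls.

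For 4 of the 12 noncoding genes that passed in a comparison, the most alike gene of the table was the coding partner. By Pearson r of log2(RPKM + 0.5) over the 9 libraries, it was Taco1 for Taco1os (0.978), Slc25a33 for Gm13068 (0.985), Asb12 for Gm14818 (0.974) and Tlcd2 for Mir22hg (0.999). For Gm16559 the most alike gene was Slc25a33 (0.991), ahead of its partner Adh1 (0.982), and for Gm16983 it was Letmd1 (0.959), with its partner Irf2bp2 the next but one (0.953). In the other 6 the partner was not among the 3 most alike. For RP24-337A16.1 these were Dhx30 (0.988), Myst2 (0.979) and Ercc5 (0.965), for BC042782 Zfc3h1 (0.992), Unc119b (0.975) and Med17 (0.965), and for Gm17603 Zfc3h1 (0.957), BC042782 (0.953) and Orc4 (0.948). For 9330136K24Rik the most alike were Gm15819 (0.972), Gpatch3 (0.962) and Txnip (0.961), for Frmd8os Sult1a1 (0.970), Ascc1 (0.969) and Tmem159 (0.966), and for Gm17499 Nctc1 (0.961), Tmem42 (0.956) and Rad50 (0.954).

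Some noncoding genes differed far more between libraries than between groups. Of the 588, 7.48% were higher and 3.91% lower in each of the 3 libraries of high matrix genes than in each of the other 6, beside 11.1% and 4.8% of all genes tested. The 3 genes that follow were chosen after their values were seen. The widest range of the 588 was that of 8030451A03Rik, opposite the matrix gene Tnc, at 4.55, 1.69 and 4.46 RPKM in those 3 libraries and at most 0.306 elsewhere. Gm17041 lies opposite Cish, an inhibitor of cytokine signalling, and stood at 31.5 RPKM in control replicate 1 against 1.10 to 5.97 elsewhere, with Cish at 26.3 against 0.957 to 4.79. Gm12927 lies opposite Cldn19, a claudin of Schwann cells, and stood at 5.09 RPKM in 6 h replicate 1, the library with the high nerve genes, against 0.382 to 1.39 elsewhere, with Cldn19 at 2.02 against 0.200 to 0.376. In each of these cases the coding partner was highest in the same library or libraries.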

How the data were processed

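Plantaris RNA of 9 libraries was sequenced after TruSeq library preparation, per the labels' protocols. Per the submitters' processing notes the build was mm9 and the tools were TopHat2, Bowtie2, bedtools, SAMtools and FastQC. No source used here gives the program behind the gene values or says whether it counted by strand. The authors' deposited table holds RPKM per library and authors' geometric means, a unit recognised from the values, the largest read count of each gene, authors' fold scores, and p-values, raw and adjusted, that the authors deposited with no named test in the sources used here.

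Dividing by the step between low RPKM values gave whole reads (tolerance 0.1 read) in 99.6% of 40393 values below 500 reads, where a value stands for its reads plus 1. All pairs of libraries differed by more than sampling noise, so no library is a copy of another, and each entered as its own. This does not show that they came from separate animals. All 9 libraries entered 1 fit of limma 3.58.1 (R 4.3.3) to log2(RPKM + 0.5), with the variance allowed to follow the mean. A fold change on this scale understates the change of low genes. The script was tested on simulated data. Alternatives, edgeR 4.0.16 and DESeq2 1.42.0 on recovered reads among them, are below. Overlap and coordinates are those of the table (mm9). Later names and exon shares came from GENCODE M21 by identifier, and sequences from RefSeq by symbol. No sequence is given for genes on chromosome 18.

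Named are the 10 highest members, all that passed, all members of 8 lists, per comparison with under 6 passing the 6 of smallest p with separate groups, and those at the level threshold. The members and lists were chosen with earlier results of these data known.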

Additional observations from a re-analysis of the deposited data

Results flagged for a closer look

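Gm16983, the lincRNA opposite Irf2bp2, stands out because its change at 6 h against control differed from its change at 2 h against control. The test of that difference, 6 h against 2 h, gave a log2 fold change of -0.80 (limma adjusted p = 0.042; lower in 3 of 3 libraries at 6 h than in any at 2 h). Over the alternatives the value lay between -0.92 and -0.74 and the adjusted p between 2.05e-07 and 0.158.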

How the results depend on the processing

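Of 506 alternative values for the named genes and comparisons, 0 changed sign, 347 stayed on their side of the threshold, 123 lost a call and 36 gained one. The groups compared did not overlap for any of these genes, so leaving out libraries could not change a sign. Only a gene that passed can lose its call. Each such gene lost it in 5 (Gm16559 at 6 h) to 14 (Taco1os at 2 h) of its 23 alternatives. The counts of noncoding genes that passed moved more. At 2 h (2 genes) the count was 5 with a filter at a mean of 1 RPKM, 6 with median-ratio scaling, 5 with TMM scaling, 0 without the variance trend, 135 with library weights (3068 of all 13309 genes), 6 with only the groups compared, 0 without the 3 libraries of high matrix genes, 0 with a term for them, 43 with DESeq2 (1382 of all genes), and 0 to 21 with a library left out. At 6 h (10 genes) it was 166 with library weights (4113 of all genes), 0 without those 3 libraries, 27 with DESeq2 (1141), and 0 to 17 with a library left out. At 6 h against 2 h (1 gene) it was 0 without the trend, 5 with library weights (119), 0 with only the groups compared, 0 without the 3 libraries, 6 with a term for them, 2 with edgeR (80), 18 with DESeq2 (893), and 0 to 1 with a library left out. The cause was not tested. With the replicate number as a block the counts were 0, 1 and 0. The deviations of libraries of the same number correlated between -0.33 and 0.49. The highest value of any pair was that of control replicate 2 with 6 h replicate 2, both libraries of high matrix genes. This check therefore cannot decide whether the numbers pair libraries. With 3 libraries a group an exact permutation test cannot go below p = 0.10. Genes with few reads carry the widest counting error, and overlap without known strand limits what any of the 509 overlapping genes shows of its own RNA.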
